A study of Mus musculus with 4 samples.

Results

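Hox genes encode homeodomain transcription factors that record where along the body axis a cell arose. In these arrays they were the genes whose platform symbol is Hoxa, Hoxb, Hoxc or Hoxd followed only by digits. The rule found 33 genes among 18194 on the array, out of 39 Hox genes in the RefSeq gene table of assembly GRCm38.p6. They were read by 48 probe sets. A gene with several was represented by its brightest, judged by the mean of the 4 arrays. The other 6 were not analysed here.

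The cells were SVEC4-10, an endothelial line derived from mouse lymph node vessels and transformed with SV40. An untreated culture was compared with cells carrying an insert-free pLENTI6/Block-iT lentivirus and with cells carrying that virus with a short hairpin RNA directed at Mical2 or at Mical3, the transduced cells having been selected with blasticidin. Mical2 and Mical3 are related redox enzymes, and the first is known to oxidise actin filaments. There was 1 array per condition, made from a pool of 3 biological replicates, so no spread between replicates can be given and no test was run. A level is a log2 RMA value. The floor is the median of all values of the table, 5.41, and a gene was called higher or lower when 2 arrays differed by at least 1 on the log2 scale, which is 2-fold, provided that the brighter of them reached the floor. Levels of different probe sets cannot be ranked against each other, because probes differ in brightness, so each gene is compared only with itself and with the floor.

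Mammals carry 4 Hox clusters, A to D, and genes in the same place of different clusters form paralog groups numbered from 1 at the anterior end to 13 at the posterior end. Polycomb complexes keep the genes silent where they do not belong, and trithorax complexes of the MLL family keep them active where they do. Adult mesenchymal and endothelial cells retain a Hox pattern of their site of origin, and in endothelium several members have been linked to adhesion and to vessel sprouting. All arrays came from 1 cell line, so cells of different body positions were not compared. The use of these genes as a record of position is background and was not tested.

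The hairpin targets were read first. By its 2 probe sets Mical2 stood at 5.33 and 5.60 on the untreated array, 4.64 and 5.14 with vector, 5.53 and 5.53 on the array labelled Mical2, and 6.0 and 6.08 on that labelled Mical3. For Mical3 the 4 levels were 7.39, 7.29, 6.83 and 7.24. A 2-fold lower level was seen for neither target on the array of its own hairpin. Mical2 lay near the floor on every array, so a 2-fold fall could hardly be read for it. By both probe sets it was higher on the array labelled Mical2 than with vector, and against the untreated array the 2 went opposite ways. These arrays are therefore named by their labels, and every direction below is a difference between labelled arrays. Correlations between arrays over all probe sets ran from 0.978 to 0.990. Of 22 endothelial markers, 6 were at or above the floor on all arrays, among them Flt1 (7.70 to 7.76) and Eng (7.31 to 7.58). That is 27.3%, against 60.2% of all genes and 29.1% of 55 genes of unrelated tissues such as liver, retina and testis. Cd34 read 4.29, 3.76, 10.02 and 3.93 in the same order, and on the array labelled Mical2 it was called higher than on both controls, while Fli1, at 5.71, 5.78, 6.26 and 3.59, was called lower on that labelled Mical3. Pecam1, Cdh5, Tek, Tie1, Vwf and Emcn, which define mature endothelium, were below the floor on all 4. Of 6 lymphatic markers 2 were at or above it on all arrays and Prox1 and Lyve1 on none. Both hairpin arrays had Flt4 called lower (9.18, 8.90, 7.66 and 7.55) and Mmrn1 called higher (4.82, 4.47, 6.67 and 6.56) against both controls. The part of these markers in the Hox results was not tested. Fibroblast and mural markers reached the floor on all arrays in 7 of 14 cases, and their summed linear level was 49770 on the untreated array, 8586 with vector, 39560 on that labelled Mical2 and 11870 on that labelled Mical3. The brightest probe sets weigh most in such a sum. On the vector array 7 of the 14 were called lower than on the untreated array, where 2.57% of all genes were. Col1a2 of that list read 14.49, 11.64, 14.06 and 6.19 in the same order, and Pdgfrb 10.28, 8.13, 10.71 and 3.55. These 2 were called lower on the array labelled Mical3 against both controls, where 2.42% of all genes were. Dcn of that list was instead highest on the array labelled Mical3, at 12.36, 10.52, 12.27 and 12.79. The median difference of the list from the untreated array was -1.21 with vector, -0.04 for the array labelled Mical2 and -0.30 for that labelled Mical3. Lum, Thy1, Fap, Rgs5 and Myh11 of that list were below the floor throughout. Of 10 leukocyte markers 4 reached it on all arrays, Cd3e, Csf1r, Cd68 and Spi1, with Ptprc and Itgam among those below it. Cd68 was called higher with vector than untreated, at 5.93, 8.0, 6.16 and 6.88. Of 8 epithelial markers 3 reached the floor on all arrays. Krt8 (8.27, 6.42, 8.32 and 8.38) and Krt18 (5.85, 4.84, 6.63 and 7.41) were called lower with vector than untreated. Krt18 was also called higher on the array labelled Mical3 against both controls. Differences in cell makeup and in RNA per cell cannot be told apart in such pools.

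The promoters that follow belong to genes at the edge of the D cluster's signal and to the paralogs of group 9 that were called. Each runs from 250 bases before to 50 bases after the start of the RefSeq transcript on GRCm38.p6, 5′ to 3′ on the gene's strand, with CpG dinucleotides in capitals. Hoxd10 was below the floor on every array, its neighbours Hoxd9 and Hoxd8 were above it and were lower on the array labelled Mical3, and Hoxa9 was lower on the array labelled Mical2.
Hoxd10, chr2:74691641-74691940, plus strand: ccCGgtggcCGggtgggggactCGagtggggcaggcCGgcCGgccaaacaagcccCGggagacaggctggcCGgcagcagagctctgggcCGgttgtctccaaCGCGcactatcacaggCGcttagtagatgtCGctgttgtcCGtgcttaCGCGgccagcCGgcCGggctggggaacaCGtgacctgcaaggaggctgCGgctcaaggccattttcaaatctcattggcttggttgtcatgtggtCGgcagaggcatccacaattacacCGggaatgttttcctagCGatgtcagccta
Hoxd9, chr2:74697513-74697812, plus strand: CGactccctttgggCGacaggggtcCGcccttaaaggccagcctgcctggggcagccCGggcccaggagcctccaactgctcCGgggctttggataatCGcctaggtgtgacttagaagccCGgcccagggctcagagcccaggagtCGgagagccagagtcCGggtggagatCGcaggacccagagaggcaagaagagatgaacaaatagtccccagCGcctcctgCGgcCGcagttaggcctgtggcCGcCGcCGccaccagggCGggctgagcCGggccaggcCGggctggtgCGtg
Hoxd8, chr2:74704365-74704664, plus strand: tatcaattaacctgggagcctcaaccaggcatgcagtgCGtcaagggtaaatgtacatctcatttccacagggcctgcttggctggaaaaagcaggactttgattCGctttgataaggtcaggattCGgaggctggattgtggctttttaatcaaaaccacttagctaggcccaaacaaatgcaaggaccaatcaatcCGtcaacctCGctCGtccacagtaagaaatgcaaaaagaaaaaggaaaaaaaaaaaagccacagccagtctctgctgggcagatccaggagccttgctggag
Hoxa9, chr6:52227321-52227620, minus strand: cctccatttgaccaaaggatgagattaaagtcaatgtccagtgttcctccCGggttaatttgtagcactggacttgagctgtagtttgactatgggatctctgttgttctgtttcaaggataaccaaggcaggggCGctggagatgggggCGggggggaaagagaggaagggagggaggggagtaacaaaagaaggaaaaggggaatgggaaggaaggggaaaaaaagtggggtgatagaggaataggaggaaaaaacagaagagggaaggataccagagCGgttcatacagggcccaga
These windows hold 22 CpG in Hoxd10, 20 in Hoxd9, 6 in Hoxd8 and 4 in Hoxa9. The median was 14.5 over the 24 windows available for 22 Hox genes, against 7 over all 32851 windows. Hoxd10 and Hoxd9 thus had similar numbers and Hoxd8 a lower one. A relation between CpG number and level was not tested. The composite site of PBX and HOX proteins (TGATNNAT, both strands) was in 4 of the 24 Hox windows, or 16.7%, and in 8.85% of all windows. The MEIS site TGACAG was in 2 of the 24, against 19.2% of all windows, and the TATA box TATAAA in 4, against 13.6%. None of these 3 motifs was in the 4 windows shown. A match describes letters only, and no match says only that the letters are not in this window.

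By the probe sets used, many Hox genes gave levels above the floor, in patches along each cluster. Neighbouring genes are read by different probe sets. Those of a single gene can fall on both sides of the floor, as for Hoxa10 (6.72 to 7.55 and 3.77 to 3.96). The patches therefore describe probe sets, and a gene below the floor is not shown to be silent. On the untreated array 19 of 33 Hox genes were at or above the floor, where 63.4% of all genes were. It was 21 on the vector array (63.7% of all genes), 18 on that labelled Mical2 (64.2%) and 20 on that labelled Mical3 (63.2%). On all 4 arrays together it was 17 of 33, or 51.5%, against 60.2% of all genes, and on at least 1 array 21 of 33, against 66.9%. The share of Hox genes was thus near that of genes in general. The floor is not a detection limit. Among 55 genes of unrelated tissues such as liver, retina and testis, 16 were at or above it on all arrays, or 29.1%. By cluster, 6 of 9 measured genes were at or above the floor on all arrays in A, 5 of 9 in B, 4 of 7 in C and 2 of 8 in D.

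**Figure D1:**
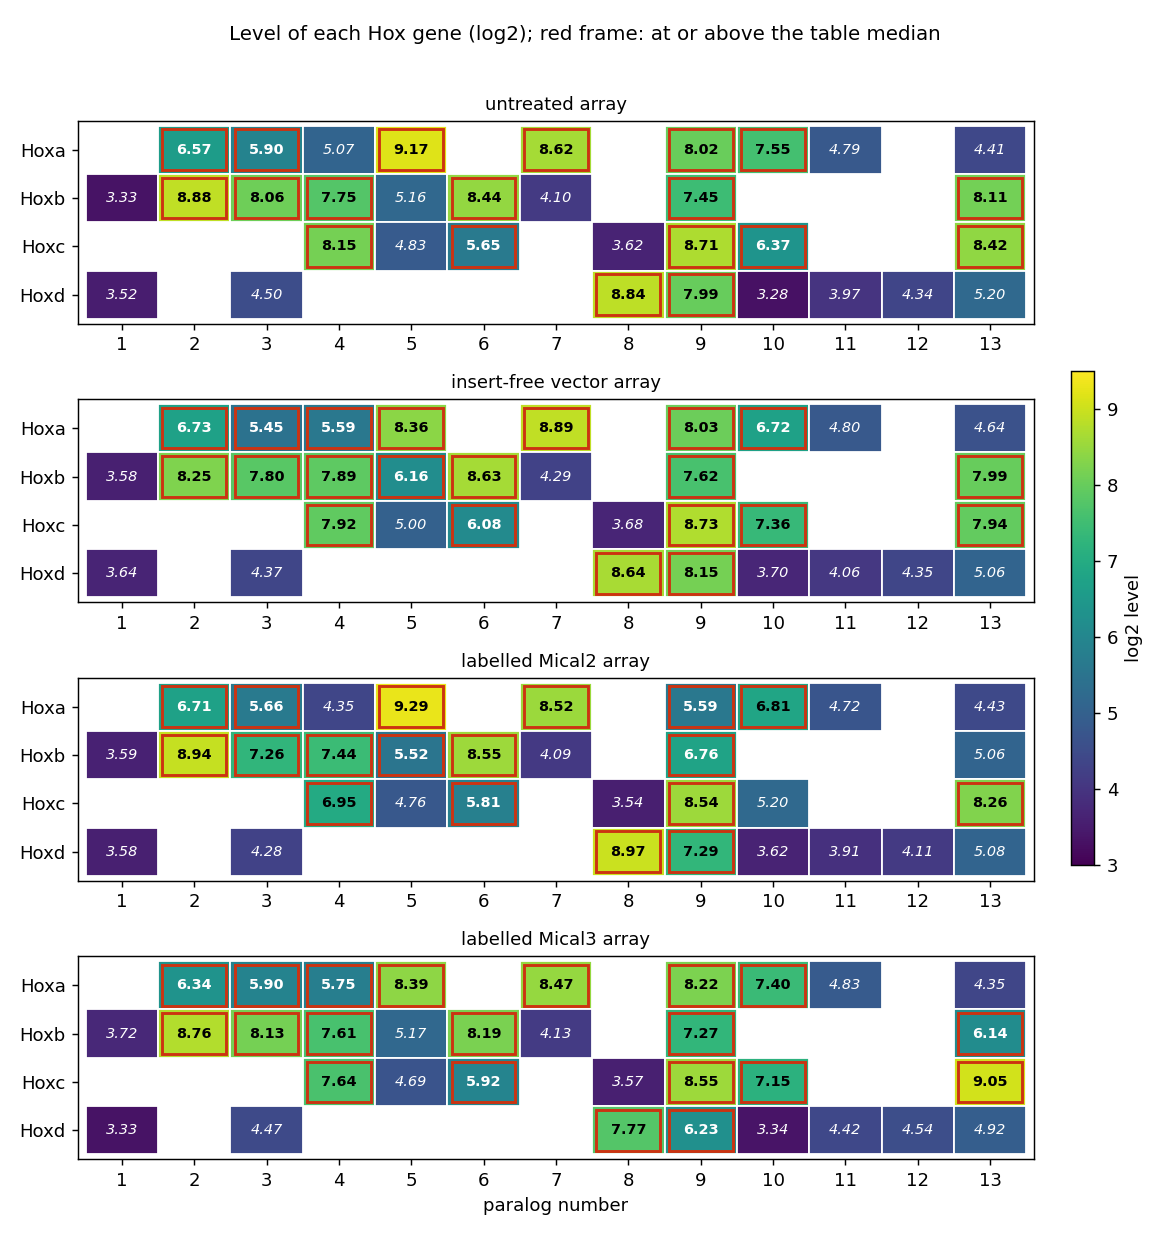
Log2 level of each Hox gene by cluster (rows) and paralog number (columns), 1 panel per array and 1 value per array. Red frames mark levels at or above the table median of 5.41, and positions without a value are empty. All 4 genes of paralog group 9 are framed on every array, while Hoxd10 to Hoxd13 are framed on none.

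Paralog group 9, which has a member in every cluster, was above the floor as a whole. Its members pattern the trunk and, in blood and vessels, Hoxa9 also marks progenitors. Hoxa9, Hoxb9, Hoxc9 and Hoxd9, all 4 of them, were at or above the floor on every array. Both measured genes of group 2 and both of group 6 did so too, as did 60.2% of all genes. At the anterior end Hoxb1, a hindbrain gene, and Hoxd1, a gene of sensory neurons, were below it throughout, and so were the measured genes of groups 11 and 12. Of 13 measured genes of groups 5 to 9, 9 reached the floor on all arrays, against 6 of 10 in groups 1 to 4 and 2 of 10 in groups 10 to 13.

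In the A cluster the measured genes from Hoxa2 to Hoxa10 were above the floor, apart from Hoxa4 on some arrays, and the measured genes behind them were not. Hoxa2, which patterns the hindbrain and the second pharyngeal arch, read 6.57 on the untreated array, 6.73 on the vector array, 6.71 on that labelled Mical2 and 6.34 on that labelled Mical3. Hoxa3, needed for thymus and parathyroid, read 5.90, 5.45, 5.66 and 5.90 in the same order, which all other sets of 4 levels below follow. Its vector level lay only just inside the floor, and 2 of its other 3 probe sets were below the floor on every array. Hoxa5, a gene of lung and foregut development, read 9.17, 8.36, 9.29 and 8.39. The vector array and the array labelled Mical3 were the low pair for it, as they were for the summed fibroblast and mural markers. Dcn of that list was not low on the array labelled Mical3, and the part of these markers was not tested. The second Hoxa5 probe set, at 8.63, 8.41, 8.94 and 8.25, had the same low pair. Hoxa7, a trunk gene, read 8.62, 8.89, 8.52 and 8.47 and differed by less than 0.5 between any arrays.

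Hoxa10, which patterns the lumbar spine and the uterus, read 7.55, 6.72, 6.81 and 7.40. A second Hoxa10 probe set lay between 3.77 and 3.96. Hoxa4 crossed the floor, at 5.07, 5.59, 4.35 and 5.75. It was lowest on the array labelled Mical2, and its second probe set was below the floor throughout, at 3.78 to 4.44. Behind these, Hoxa11 (4.72 to 4.83), a gene of forearm, shank and uterus, and Hoxa13 (4.35 to 4.64), a gene of hand, foot and genital tract, were below the floor on all arrays. The protein-coding neighbours outside the cluster were Skap2 on the anterior side, at 10.71 to 10.87, and Evx1 on the posterior side, at 4.55 to 4.72. Neither was called in any comparison.

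In the B cluster Hoxb2, Hoxb3, Hoxb4, Hoxb6 and Hoxb9 were above the floor on every array, and Hoxb5 and the isolated Hoxb13 on some. Hoxb2, a hindbrain gene, read 8.88, 8.25, 8.94 and 8.76. Hoxb3, whose human counterpart has been tied to capillary formation, read 8.06, 7.80, 7.26 and 8.13. Hoxb4, known for expanding blood stem cells, read 7.75, 7.89, 7.44 and 7.61. For these 3 genes no array was 2-fold apart from another, and the array labelled Mical2 was the lowest for Hoxb3 and Hoxb4. Second probe sets of Hoxb3 (6.26 to 6.61) and Hoxb4 (6.06 to 6.28) were also at or above the floor on every array. Hoxb6, a gene of lateral mesoderm, read 8.44, 8.63, 8.55 and 8.19, and Hoxb9, a thoracic gene, read 7.45, 7.62, 6.76 and 7.27. Hoxb7 was below the floor by its own probe set, at 4.09 to 4.29. Another probe set, which the annotation gives to both Hoxb8 and Hoxb7, read 7.31, 7.47, 6.85 and 6.99 and cannot be assigned to either. The neighbours Ttll6, next to Hoxb13, and Skap1, next to Hoxb1, read 6.21 to 6.59 and 4.14 to 4.41, and neither was called.

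In the C cluster, by the probe sets used, the genes above the floor alternated with genes below it, and Hoxc10 was above it on 3 arrays. Hoxc4 read 8.15, 7.92, 6.95 and 7.64, with the array labelled Mical2 the lowest. Hoxc6, which is active at forelimb level, read 5.65, 6.08, 5.81 and 5.92, and its other 2 probe sets lay between 4.89 and 5.55. Hoxc9, which specifies thoracic motor neurons, read 8.71, 8.73, 8.54 and 8.55. Its 4 levels spanned 0.19, the narrowest range among the Hox genes above the floor. Hoxc5 (4.69 to 5.00) and Hoxc8 (3.54 to 3.68) were below the floor on all arrays although Hoxc4, Hoxc6 and Hoxc9 were above it. The Hoxc13 probe set, for a gene known from hair and nail, read 8.42, 7.94, 8.26 and 9.05, highest on the array labelled Mical3. Calcoco1 and Smug1, on either side of the cluster, read 5.15 to 6.12 and 8.66 to 9.22 and were not called.

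The D cluster was the one with most genes below the floor, and its signal sat at Hoxd8 and Hoxd9. Hoxd8 read 8.84, 8.64, 8.97 and 7.77. Hoxd9 read 7.99, 8.15, 7.29 and 6.23. For both genes the array labelled Mical3 was the lowest. On one side Hoxd10 (3.28 to 3.70), Hoxd11 (3.91 to 4.42), Hoxd12 (4.11 to 4.54) and Hoxd13 (4.92 to 5.20), which build limbs and the genital tract, were below the floor on every array. On the other side Hoxd1 (3.33 to 3.64) and Hoxd3 (4.28 to 4.50) were below it. HOXD3 in human endothelial cells is known to induce integrins, so it bears on angiogenesis. A probe set annotated to both Hoxd4 and Hoxd3 read 6.23, 6.33, 6.20 and 6.10, and another with the same annotation read 4.70 to 5.01. Outside the cluster Evx2 read 5.50 to 5.81. Mtx2, on the Hoxd1 side, read 11.09, 10.34, 11.43 and 11.56 and was called higher on each hairpin array against the vector array, but not against both controls.

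**Figure D2:**
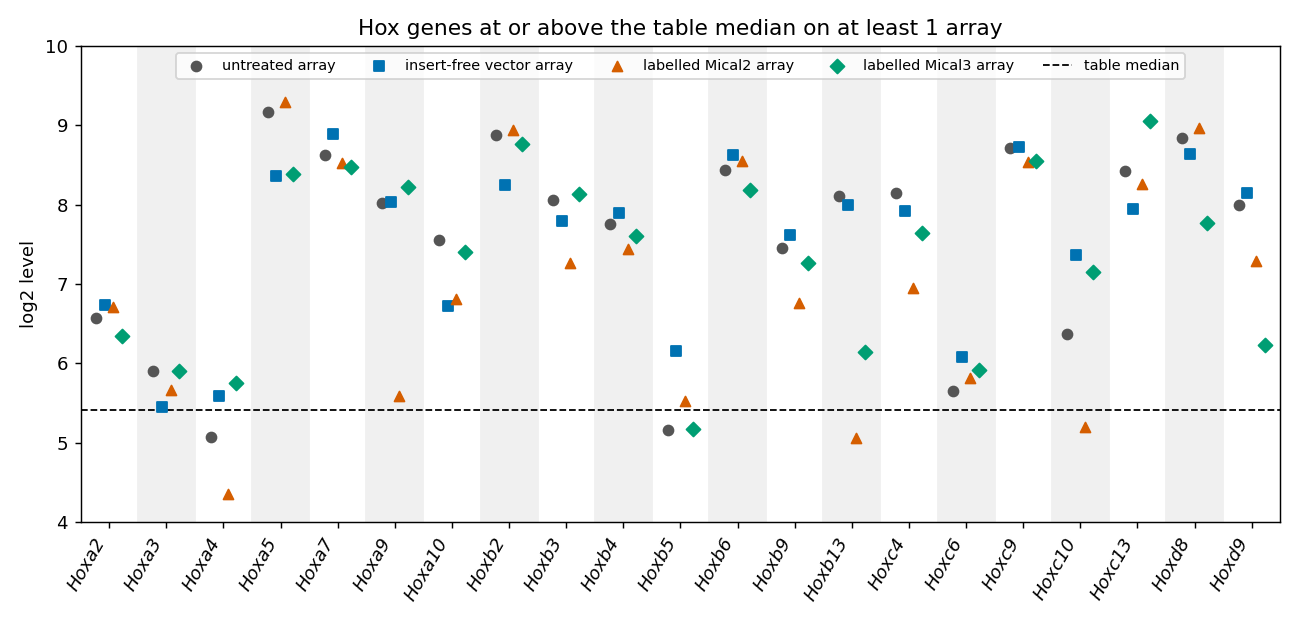
Log2 levels on the 4 arrays of the 21 Hox genes at or above the table median (dashed line, 5.41) on at least 1 array, with 1 point per array and no error bar because each group has 1 array. Hoxa9, Hoxb13 and Hoxc10 have their low point on the array labelled Mical2, and Hoxd8 and Hoxd9 on the array labelled Mical3.

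The distance between a gene's highest and lowest array was taken over the 17 Hox genes that were at or above the floor on all arrays. Its median was 0.83, against 0.54 over 10948 genes chosen in the same way. It was at least 1 for 5 of the 17, or 29.4%, against 18.2% of those genes. Under 0.5 the shares were close, with 7 of the 17, or 41.2%, against 44.2%. The other 4 Hox genes above the floor, Hoxa4, Hoxb5, Hoxb13 and Hoxc10, passed it only on the arrays where they are high, and each had a distance of at least 1. Among the 12 Hox genes below the floor throughout the median was 0.30. Near background RMA compresses differences, which bears on the dim genes. These are descriptions of 4 arrays without a test.

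The Mical2 hairpin comparison asks which transcripts change when the actin-oxidising enzyme is targeted. Hoxb13, Hoxa9 and Hoxc10 were called lower on the array labelled Mical2 against both controls, and no Hox gene was called higher. That is 3 of 21 Hox genes at or above the floor, where 1.68% of all genes were called lower, 0.977% higher and 2.66% either way. The 2 control comparisons share the hairpin array, and their values stand side by side below.

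Hoxb13, the most posterior gene of its cluster and known from tail spine and prostate, read 8.11 on the untreated array, 7.99 on the vector array, 5.06 on that labelled Mical2 and 6.14 on that labelled Mical3. Both controls were high, and the array labelled Mical2 was below the floor. The log2 differences of that array were -3.05 from the untreated and -2.93 from the vector array. Hoxa9 read 8.02, 8.03, 5.59 and 8.22, so 3 arrays lay close together and the array labelled Mical2 was apart by -2.43 and -2.44. Its second probe set did not follow, and read 6.52, 6.37, 6.25 and 6.54, with differences of -0.27 and -0.12, and when every probe set of a gene had to pass, an alternative chosen after the data were seen, Hoxa9 was no longer called. With the mean of its probe sets the difference from the vector array was -1.28.

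Hoxc10, a gene of hindlimb-level motor neurons and of adipose tissue, read 6.37, 7.36, 5.20 and 7.15. It was below the floor only on the array labelled Mical2, by -1.17 from the untreated and -2.16 from the vector array. The controls themselves were 0.99 apart, just short of the 2-fold limit. Hoxc4 was 2-fold lower than on the untreated array (-1.20) and just short of that against the vector array (-0.97). Hoxa4 was lower than on the vector array (-1.24) but not by 2-fold than on the untreated array (-0.72). Against the vector array alone 4 Hox genes were called lower and none higher, with 6.91% and 3.82% of all genes, 10.7% together. Against the untreated array alone it was also 4 lower and none higher, with 2.44% and 1.44% of all genes, 3.89% together.

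The counts and medians over the Hox genes include the called ones, and some genes entered only through the arrays where they are high. Of the 21 Hox genes at or above the floor 15 were below the vector array, where 54.0% of all genes were, with a median difference of -0.37 against -0.05. From the untreated array 13 of 20 were below, where 53.0% of all genes were, with a median of -0.20 against -0.03. In the B cluster Hoxb9 differed by -0.86 and -0.69 from the vector and the untreated array, and Hoxb3 by -0.54 and -0.80. Hoxa5 and Hoxb2 went the other way against the vector array, by 0.93 and 0.69, and differed from the untreated array by only 0.12 and 0.06.

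**Figure D3:**
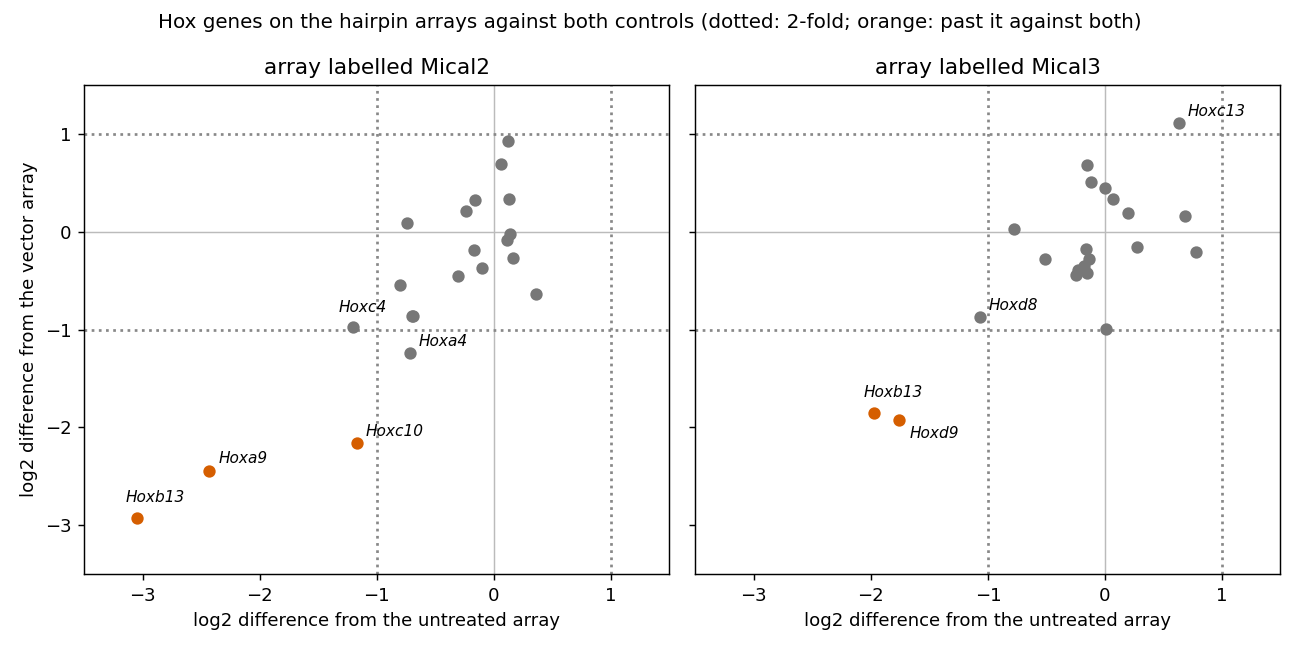
Log2 difference of each hairpin array from the untreated array (horizontal axis) and from the vector array (vertical axis) for the 21 Hox genes at or above the table median on at least 1 array. The axes share the hairpin array, so points lie along the diagonal by construction. Orange points passed 2-fold (dotted lines) against both controls, which were Hoxb13, Hoxa9 and Hoxc10 on the array labelled Mical2 and Hoxb13 and Hoxd9 on the array labelled Mical3.

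The array labelled Mical3 carries, in the same vector, a hairpin to the related gene. Hoxb13 and Hoxd9 were called lower on the array labelled Mical3 against both controls, 2 of 21, where 2.42% of all genes were called lower, 1.38% higher and 3.8% either way. No Hox gene was called higher. Hoxb13 differed by -1.97 from the untreated and -1.85 from the vector array and stayed above the floor, at 6.14. Hoxd9, which patterns the forelimb and lower spine, differed by -1.76 and -1.92.

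Hoxd8, the gene next to Hoxd9, differed by -1.07 from the untreated and -0.87 from the vector array, so it was called against the first only. Its second probe set, at 8.28, 8.12, 8.28 and 7.10, passed 2-fold against both, with -1.18 and -1.02. The 4 measured genes on the posterior side of Hoxd9 were below the floor, so no difference could be read there. Hoxd3os1, an antisense transcript of the same cluster, read 5.62, 5.53, 5.37 and 4.82 by its brighter probe set. This too was lowest on the array labelled Mical3 but was not called, and its other probe set was below the floor at 3.75 to 3.98.

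Hoxc13 was higher than on the vector array by 1.11 and than on the untreated array by 0.63. Hoxc10 was within 2-fold of both controls, with 0.78 from the untreated and -0.21 from the vector array. Against the vector array alone 1 Hox gene was called higher and 2 lower, with 4.64% and 7.13% of all genes, 11.8% together. Against the untreated array alone none was called higher and 3 lower, with 1.95% and 3.72% of all genes, 5.67% together. Over the genes at or above the floor, the median difference from the vector array was -0.21 for Hox genes and -0.03 for all genes, and from the untreated array -0.15 and 0.01.

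Set directly against each other, the hairpin arrays differed by 2-fold in 6 of 21 Hox genes and in 7.53% of all genes. Hoxa4 (-1.40), Hoxa9 (-2.63), Hoxb13 (-1.08) and Hoxc10 (-1.95) were lower on the array labelled Mical2, where 3.72% of all genes were called lower. Hoxd8 (1.20) and Hoxd9 (1.06) were higher there, with 3.81% of all genes. The lower genes thus lay in clusters A, B and C and the higher ones in cluster D. Those in cluster A rest on a single probe set each. The second probe sets differed by only -0.59 for Hoxa4, where it was below the floor, and -0.29 for Hoxa9. When every probe set had to pass, an alternative chosen after the data were seen, Hoxb13, Hoxc10, Hoxd8 and Hoxd9 were still called. These are descriptions of 6 genes on 2 arrays.

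The comparison of vector and untreated cells measures transduction and selection together with the difference between any 2 arrays. Hoxb5 was the only Hox gene called, 1 higher of 21 (3.26% of all genes called higher) and none lower (2.57%), where 5.83% of all genes were called either way. Hoxb5, which is known to activate the VEGF receptor gene Kdr in endothelial precursors, read 5.16, 6.16, 5.52 and 5.17. The vector array was the high one, and its difference of 1.0 sits exactly at the limit. Hoxb5os, an antisense transcript next to it, was also highest on the vector array, at 5.54, 6.15, 5.75 and 5.50. Kdr was at 5.72, 5.76, 5.76 and 5.95. Next below the limit came Hoxc10 (0.99), while Hoxa10 (-0.83) and Hoxa5 (-0.81) were lower on the vector array. Over the Hox genes at or above the floor the median difference was 0.02, and 0.04 over all genes.

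**Figure D4:**
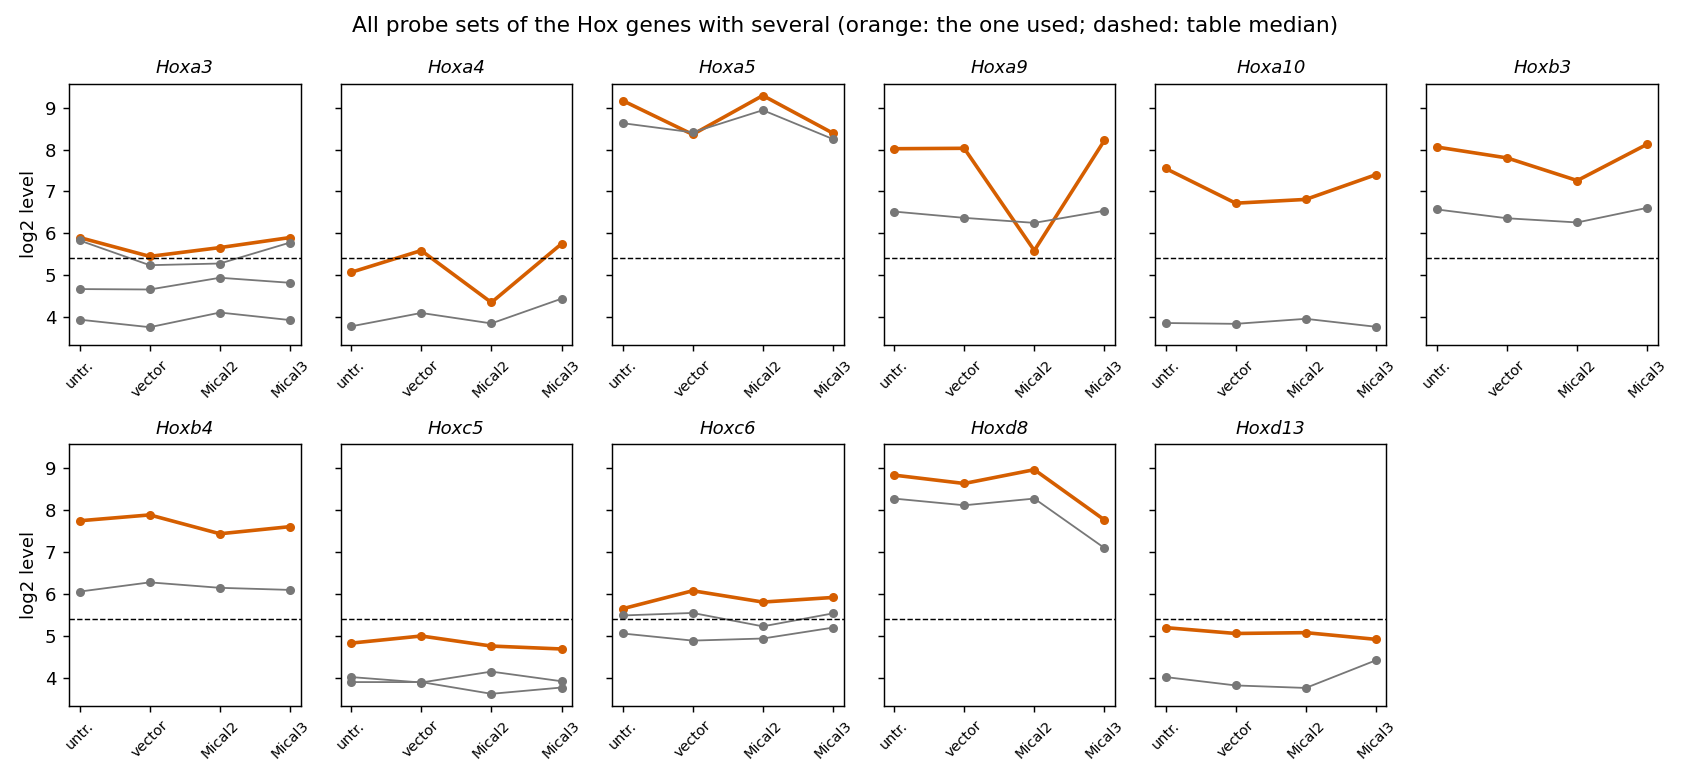
Log2 level on each array of every probe set of the 11 Hox genes with more than 1, with the probe set used in orange and the table median dashed. Both Hoxd8 probe sets are lowest on the array labelled Mical3, whereas only 1 of the 2 Hoxa9 probe sets is low on the array labelled Mical2.

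The call of Hoxa9 thus depends on the probe set. Of the 33 genes, 22 had 1 probe set, among them Hoxb13, Hoxc10 and Hoxd9, so nothing on the array checks their differences. The other 11 had several. Noncoding transcripts of the clusters were read for Hoxa11os, Hoxb5os and Hoxd3os1, and Hoxa11os was below the floor by both its probe sets (3.16 to 3.69), as was Hoxa11 itself.

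Genes that work with or on Hox proteins were read against the shares of all genes, 60.2% at or above the floor on all arrays, and 2.66% and 3.8% called against both controls on the arrays labelled Mical2 and Mical3. With lists of this size, 0 or 1 call is near those shares. TALE homeobox proteins bind DNA together with Hox proteins. Of 8 measured, 6 were at or above the floor on all arrays, Pbx2, Pbx3, Meis1, Meis2, Meis3 and Pknox1, and none was called against both controls on either hairpin array. Their median difference from the vector array was -0.22 for the array labelled Mical2 and -0.12 for the array labelled Mical3, where all genes had 0.01 and 0.0. From the untreated array it was -0.31 and -0.15, where all genes had 0.01 and 0.02. Meis1 was lowest on the array labelled Mical3, at 7.56, 8.15, 7.64 and 6.89, which was 2-fold below the vector array only.

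Polycomb genes, which silence Hox clusters, were at or above the floor on all arrays in 26 of 27 cases. None was called against both controls. Cbx7, a reader of the repressive histone mark, was higher on the vector array, at 4.94, 6.37, 5.20 and 5.30. Ezh2, the methyltransferase, read 10.93, 10.74, 10.58 and 11.19, with no array 2-fold apart. All 18 measured trithorax and MLL genes were above the floor. Kmt2d, an enhancer methyltransferase, was called lower on the array labelled Mical2 (9.46, 9.70, 8.44 and 8.67), and Mllt3, a reader in the elongation complex that activates Hox genes, was called lower on the array labelled Mical3 (7.92, 7.79, 7.17 and 6.75). Kmt2a, the methyltransferase best known for keeping Hox genes on, read 7.25, 7.62, 6.97 and 7.01. The medians of the MLL list from the vector array were -0.33 and -0.20 for the arrays labelled Mical2 and Mical3, and those of the Polycomb list -0.27 and 0.02. From the untreated array they were -0.24 and -0.24 for the MLL list and -0.11 and 0.11 for the Polycomb list.

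Retinoic acid switches Hox genes on in the embryo. Of 16 genes for its handling and reception, 9 were at or above the floor on all arrays, and 1 was called against both controls. Aldh1a1, which makes retinoic acid, read 11.88, 9.57, 11.68 and 13.36. It was called lower on the vector array against the untreated array and higher on the array labelled Mical3 against both. The receptors Rara (5.71 to 5.98) and Rarg (8.41 to 8.49) hardly differed.

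Among ParaHox, Cdx and Evx genes 1 of 13, Evx2, was at or above the floor on all arrays, and none was called. Of 27 other positional factors 11 were at or above it on all arrays, with 1 called against both controls. Shox2, a limb factor, was lower on the array labelled Mical3, at 7.35, 7.13, 6.89 and 6.12. Hand2, a heart and limb factor, was lower on the vector array than on the untreated array, at 9.41, 7.24, 9.56 and 7.26, with the array labelled Mical3 low as well. Irx3 was lower on the vector array too, at 5.51, 4.46, 5.02 and 4.24. The Hand2 pattern, like that of Hoxa5, ran with the summed fibroblast and mural markers, though not with Dcn of that list. The part of these markers was not tested.

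Of 15 endothelial genes that have been linked to Hox factors in the literature on vessels, 9 were at or above the floor on all arrays, close to the 60.2% of all genes. None was called against both controls, which for 15 genes is near the 2.66% and 3.8% of all genes. Itgb3, the integrin subunit that HOXD3 is known to induce in human cells, read 5.95, 5.80, 5.89 and 6.06. Ephb4, a venous receptor tied to HOXA9, read 7.61, 7.56, 7.26 and 7.66. Nos3, tied to the same factor, read 5.10, 5.22, 5.38 and 5.42, and Sele lay at 3.85 to 4.12. None of these 4 genes differed by 2-fold between any arrays, but others of the list did. Plau, a protease activator, read 5.38, 4.12, 6.05 and 5.90, which was 1.93 and 1.78 above the vector array on the arrays labelled Mical2 and Mical3 and within 2-fold of the untreated array. Efna1, an ephrin ligand, read 8.36, 8.69, 8.96 and 7.42. On the array labelled Mical3 it differed by -1.27 from vector and -0.94 from untreated cells. Medians for the list were 0.16 and 0.13 from the vector array on the arrays labelled Mical2 and Mical3, and 0.04 and -0.06 from the untreated array.

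**Figure D5:**
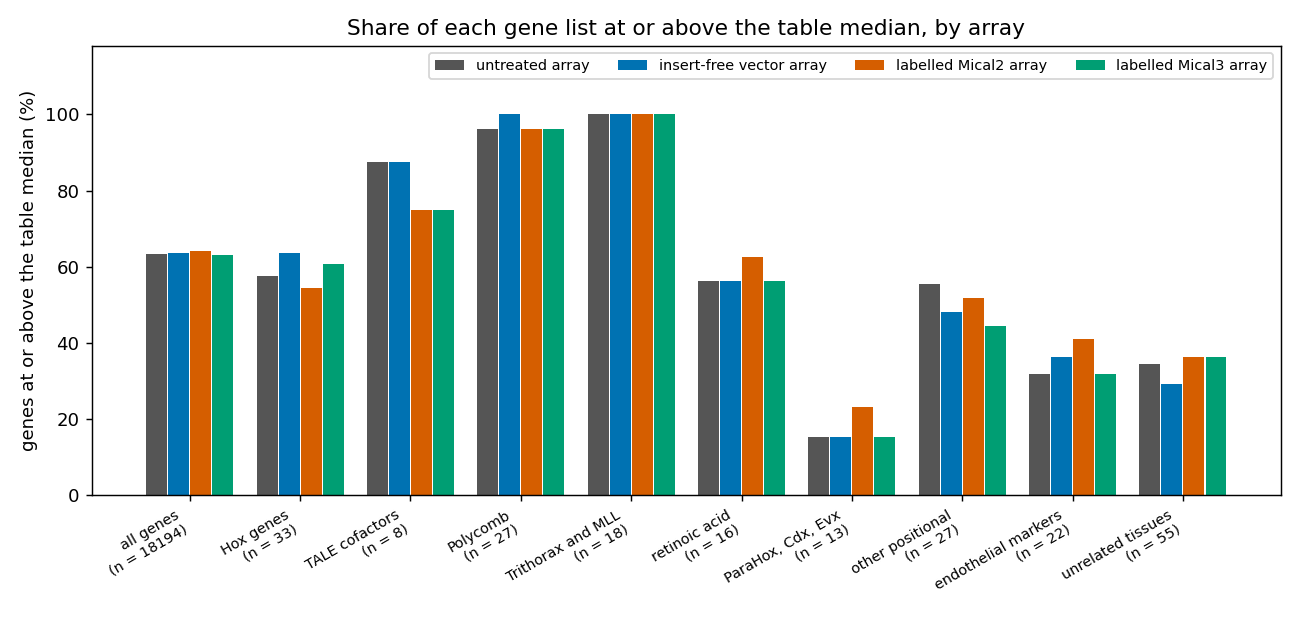
Percent of genes at or above the table median on each array, for all genes, the Hox genes and the related lists, with the number of measured genes under each name. On each array Hox genes lie below or close to all genes (63.2% to 64.2%), trithorax and MLL genes reach 18 of 18, and the 55 genes of unrelated tissues are among the lowest.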

How the data were processed

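Log2 expression levels were deposited by the authors, 1 value per probe set and array, as RMA output, according to the submitters' processing notes. RMA's version is not given in the sources used here, nor is a genome build. Total RNA was labelled as biotinylated complementary RNA, and each array held a pool of 3 biological replicates, per the labels. Groups came from the sample titles. The values were used without further scaling, and array medians were 5.40 to 5.44. Of 45101 probe sets, 34958 had 1 symbol in the platform annotation, 932 had several and 9211 none. Those with 1 symbol gave 18194 genes. Differences, the floor and the 2-fold rule were computed as in the text. Precision is limited by having 1 array per group. The rule was also run on simulated data, where the set differences were well past the limit and in genes well above the floor. That run does not cover calls near the limit or near the floor. Genes named are every Hox gene, the cluster neighbours, and members of 8 other lists that passed the rule against both controls or between the controls. Further genes (such as Meis1, Ezh2, Kmt2a, Rara, Kdr, Itgb3) were named for their known role, and markers for their role or their call, after their values were seen. The members and lists were chosen with earlier results of these data known. Alternatives covered the floor, the fold, the choice of probe set, cross-hybridisation, normalization, symbols and 16 added on the linear scale. Promoter windows came from RefSeq, GRCm38.p6, and were matched by symbol for 19 of the 33 genes. Python 3.11.15, numpy 2.4.6, pandas 2.3.3 and matplotlib 3.10.9 were used.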

Additional observations from a re-analysis of the deposited data

How the results depend on the processing

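With the floor at the 75th percentile of the table, 8.01, the Hox genes at or above it numbered 11 on the untreated array, 8 on the vector array, 7 on the array labelled Mical2, 8 on the array labelled Mical3 and 5 on all 4, and the calls numbered 0 for the vector against the untreated array, 1 (Hoxa9) for the array labelled Mical2, 0 for the array labelled Mical3 and 2 between the hairpin arrays. A fold of 1.5 gave 5, 6, 4 and 11 calls in the same order, and a fold of 3 gave 0 for the vector and 2 between the hairpin arrays. With 16 added on the linear scale those last 2 counts were 0 and 3, and repeated quantile normalization gave 0 for the vector. The related lists had 1 and 3 genes called on the arrays labelled Mical2 and Mical3. Averaging over all probe sets gave 0 and 1, and the probe set with the highest variance gave 5 on the array labelled Mical3. The other 84 counts stayed within 1.5 times. Hoxb5 was called under 8 of 12 alternatives and Hoxc10 on the array labelled Mical2 under 9. Hoxb13 on either hairpin array and Hoxd9 on the array labelled Mical3 were called under 11. Between the hairpin arrays Hoxa4 was called under 8, Hoxb13 and Hoxd9 under 9, Hoxc10 and Hoxd8 under 11 and Hoxa9 under all 12. Hoxa9 was called under all 12 on the array labelled Mical2, from -2.44 to -1.28 against the vector array, but not when every probe set had to pass. No direction was reversed. The cause of these changes was not tested beyond the thresholds themselves. No paired analysis was possible because each group has 1 array.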
